A study of Homo sapiens with 10 samples.

Results

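RNA-seq of HAP1 cells lacking the adenine DNA glycosylase MUTYH was compared with that of wild type (WT) cells. The comparison was taken by genotype label from the gene count table: 2 MUTYH knockout libraries, clones C7 and C8, against 2 WT libraries, clones C2 and C11, which are 4 of the 10 libraries of the series. HAP1 cells carry a nearly haploid human genome and descend from the leukaemia line KBM-7, and knockouts were made by CRISPR-Cas9. All 4 clones were untreated, were grown in the same serum-containing medium and shared the HAP1 background, so the knockout of MUTYH was the labelled difference between the groups. Each library came from a separate clone, and each genotype had 2 clones, so differences between single cell clones and differences between genotypes rest on the same libraries. The OGG1 knockout (clones C1 and C22) and the double knockout of OGG1 and MUTYH (DKO, clones C4 and C14) entered the fit as further untreated libraries, which gave 8 libraries in all. The DKO clones descend from an OGG1 knockout clone, not from the MUTYH knockout clones.

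MUTYH removes adenine that has been paired with 8-oxoguanine during replication, which gives the OGG1 glycosylase a further opportunity to excise the oxidised guanine opposite. Loss of MUTYH leaves these mispairs to become G to T transversions, and inherited loss causes a colorectal polyposis syndrome. In untreated cultured cells the enzyme is known for its part in repair, so the comparison asked which transcripts, if any, differ when it is missing.

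Total counts were 22283932 to 22404890 in the 4 libraries, and 17881 of 59453 listed genes passed the filter on low counts. Mitochondrial genes took 5.02% and 5.14% of counts in WT C2 and C11, 3.75% in MUTYH knockout C8 and 6.10% in C7. Levels are given in CPM, counts per 1000000 counts of the library after TMM scaling. The MUTYH gene (chromosome 1, 45329163 to 45340893, minus strand, GRCh38) had 4.66 and 3.96 CPM in WT C2 and C11 and 3.65 and 4.70 CPM in MUTYH knockout C8 and C7. These ranges overlapped, with a log2 fold change of -0.05 ± 0.42 (SE, edgeR adjusted p of 1), so the transcript level did not tell the genotypes apart. MUTYH overlaps TOE1 at its 5′ end, and strand handling during counting is not given in the sources used here. The clones were treated as 2 matched pairs, C8 with C2 (pair A) and C7 with C11 (pair B), because the untreated libraries of the series split into 2 sets that cross the genotypes. That split was found in these data and is named by no label. The libraries compared 2 at a time did not all follow it: C8 differed over 2-fold from WT C2 at 1280 genes and from WT C11 at 1151, while C7 differed from WT C11 at 940 and from WT C2 at 2062. The clone difference C2 minus C11 correlated with C8 minus C7 across 17881 genes (Pearson r = 0.386, as a description, since genes are not independent).

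A differentially expressed gene (DEG) had an edgeR P value, before adjustment, no higher than 0.05 and differed over 2-fold. MUTYH knockout clones had 212 DEGs against WT (1.19% of tested genes), 73 of them higher (0.408%) and 139 lower (0.777%). Lower genes thus outnumbered higher ones. Only the thrombospondin repeat gene THSD7B passed Benjamini-Hochberg (BH) adjustment over all genes (0.00559% of tested genes). Before adjustment 308 of 17881 tested genes passed the P threshold. That is a smaller share than the 0.05 that the threshold alone would pass if no gene differed. The Wald test of DESeq2 gave 11 genes after adjustment. These were THSD7B, LBX1-AS1, PTPN3, EGR1, PRAME, FASTKD2, ZNF329, ID1, NPR3, APOBEC3C and ALDH1A2. With the side of the matched pairs as a block the number of DEGs was 318 (1.78%), 125 higher (0.699%) and 193 lower (1.08%), again with 1 gene after adjustment (0.00559%). Of the 212 DEGs, 204 were also DEGs under the block, with which 797 genes passed the P threshold before adjustment. The block was drawn from these same counts, so its calls and P values are no separate support for the DEGs. The calls depended on the clones: the number was 117 without WT C2, 702 without WT C11, 457 without MUTYH knockout C8 and 238 without C7.

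Within the pairs, 1280 genes differed over 2-fold between C8 and C2 and 940 between C7 and C11. Of these, 199 differed over 2-fold the same way in both pairs (1.11% of tested genes), 71 higher (0.397%) and 128 lower (0.716%), and 117 differed over 2-fold in opposite directions. Among the DEGs, 115 were beyond 2-fold the same way in both pairs, 36 higher and 79 lower. The log2 ratios of all genes had the same sign in both pairs for 50.9% of genes (Pearson r = 0.116 across 17881 genes), so the pairs shared a small set of large differences and little of the rest.

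**Figure D1:**
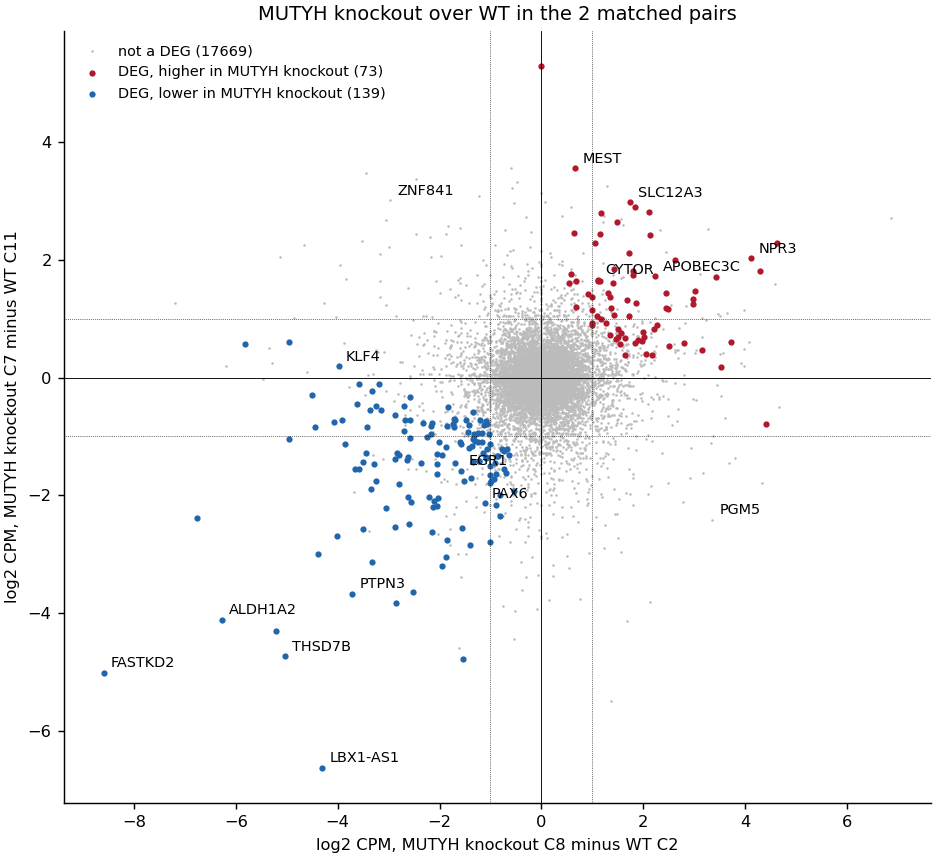
Log2 CPM ratio of MUTYH knockout over WT for each tested gene in pair A (horizontal, C8 minus C2) and pair B (vertical, C7 minus C11), with a prior count of 2. Red points are the 73 higher and blue points the 139 lower DEGs, grey points the other genes, and dotted lines mark 2-fold. THSD7B, LBX1-AS1, PTPN3, FASTKD2 and ALDH1A2 lie far down in both pairs, whereas KLF4 is low in pair A only and PGM5 and ZNF841 go opposite ways.

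The WT clones themselves differed for many of the lower genes. WT C2 was over 2-fold above WT C11 for 66 of the 139 lower DEGs (47.5%), against 3.69% of all tested genes. WT C2 was over 2-fold below WT C11 for 19 of the 73 higher DEGs, against 4.64% of all tested genes. The 2 genotypes' libraries did not overlap for 197 of the 212 DEGs, which the definition favours, and for 3879 of all tested genes (21.7%), 2014 of them higher (11.3%) and 1865 lower (10.4%) in MUTYH knockout. Both MUTYH knockout libraries lay outside the range of all 6 other untreated libraries for 79 DEGs and for 872 of all tested genes (4.88%), 416 above (2.33%) and 456 below (2.55%).

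THSD7B (chromosome 2, 136765545 to 137677718), which encodes a membrane protein with thrombospondin type 1 repeats, had 10.1 and 8.51 CPM in WT C2 and C11 and 0.22 and 0.233 CPM in MUTYH knockout C8 and C7. Both knockout libraries held 5 reads, against 227 and 191 in WT, so it fell to near the counting floor in both clones. The edgeR fit gave -5.33 ± 0.34 (SE) on the log2 scale for THSD7B, and adjusted p values of 0.0119 without and 0.00877 with the block. LBX1-AS1 (chromosome 10, 101229577 to 101270148), an antisense transcript, had 195 and 197 counts in WT C2 and C11 and 8 and 0 counts in C8 and C7. Its neighbour LBX1 (101226994 to 101229463), a homeobox gene of muscle and dorsal spinal cord precursors, lies 113 bases away and had 2.93 and 2.41 CPM in WT C2 and C11 and 0.176 and 0.838 CPM in C8 and C7. Both genes of the locus were thus low in both knockout clones. The log2 fold changes were -5.56 ± 0.76 for LBX1-AS1 and -2.39 ± 0.61 for LBX1 (SE, edgeR adjusted p of 1 for both). In the Wald test of DESeq2 LBX1-AS1 had an adjusted p of 1.45e-16, and LBX1 did not pass adjustment. Without C8 the value of LBX1-AS1 was -10.60 and that of LBX1 -1.67.

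PTPN3 (chromosome 9, 109375466 to 109498313), a cytoplasmic tyrosine phosphatase, had 6.30 and 14.1 CPM in WT C2 and C11 and 0.396 and 1.02 CPM in C8 and C7. Its log2 fold change was -3.84 ± 0.55 (SE). ZNF329, a zinc finger gene, had 2.97 and 6.01 CPM in WT and 0.748 and 0.652 CPM in the knockout (log2 fold change -2.67 ± 0.51). PRAME, a cancer-testis antigen gene expressed in leukaemias, had 26.3 and 8.55 CPM in WT C2 and C11 and 3.52 and 1.40 CPM in C8 and C7 (log2 fold change -2.82 ± 0.62). For each of these genes both knockout clones lay below both WT clones and below the OGG1 knockout and DKO clones. PTPN3, for instance, had 21.9 and 14.9 CPM in OGG1 knockout C22 and C1 and 20.9 and 23.5 CPM in DKO C14 and C4, although DKO lacks MUTYH as well.

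FASTKD2, which binds mitochondrial ribosomal RNA, had 780 and 63 counts in WT C2 and C11 and 0 counts in both knockout clones. With a floor of 3 counts per library (0.136 CPM), it was at least 20.7-fold lower than in WT C11 and at least 255-fold lower than in WT C2. It was also near 0 elsewhere, with 2 and 0 counts in OGG1 knockout C22 and C1 and 4 and 4 counts in DKO C14 and C4, so the WT clones were the exception. ALDH1A2, which makes retinoic acid, had 61.5 and 3.07 CPM in WT C2 and C11 and 0.704 and 0.093 CPM in C8 and C7. Its log2 fold change of -6.30 ± 1.48 (SE) was -2.92 without WT C2. TMC5, a membrane protein of the TMC family, had 3.46 and 1.60 CPM in WT and 0.484 and 0.326 CPM in the knockout (log2 fold change -2.62 ± 0.64).

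Among the higher genes, the receptor NPR3, which clears natriuretic peptides, had 0.355 and 0.445 CPM in WT C2 and C11 and 7.62 and 2.09 CPM in C8 and C7. Its log2 fold change was 3.58 ± 0.71 (SE), and 2.37 without C8. DIO2, which activates thyroid hormone, had 0.222 and 0.267 CPM in WT and 5.99 and 1.16 CPM in C8 and C7 (log2 fold change 3.84 ± 0.90). CALCR, the calcitonin receptor, was the more even in WT, with 0.621 and 0.624 CPM, and had 2.47 and 5.26 CPM in C8 and C7 (log2 fold change 2.62 ± 0.72). SLC12A3, a sodium chloride cotransporter, had 0.488 and 0.713 CPM in WT and 1.85 and 6.24 CPM in the knockout (log2 fold change 2.74 ± 0.64). NPR3 and DIO2 were higher in C8 than in C7, whereas CALCR and SLC12A3 were higher in C7.

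APOBEC3C, a cytidine deaminase, had 8.39 and 9.71 CPM in WT C2 and C11 and 39.8 and 32.2 CPM in C8 and C7, with a log2 fold change of 1.99 ± 0.47 (SE). CYTOR, a long non-coding RNA, had 3.33 and 2.41 CPM in WT and 7.26 and 7.82 CPM in the knockout. The log2 fold change of CYTOR was 1.39 ± 0.31, and that of GSTM2, a glutathione transferase with 3.24 and 2.63 CPM in WT and 8.76 and 8.14 CPM in the knockout, was 1.53 ± 0.32. These 3 genes were over 2-fold higher in both pairs, but all of them have close paralogs or a near-identical copy, to which reads may have been assigned differently. They also differed in how the other knockouts stood: APOBEC3C had 27.0 and 22.6 CPM and GSTM2 7.61 and 4.98 CPM in OGG1 knockout C22 and C1, above WT, whereas CYTOR had 2.17 and 2.92 CPM there. SDK1, an adhesion gene, had 4.44 and 2.76 CPM in WT and 12.2 and 10.1 CPM in the knockout. ADAM12, a metalloprotease gene, had 0.177 and 0.713 CPM in WT and 2.07 and 2.14 CPM in the knockout. IL7R, AC012313.6 and AC010896.1 were the other named genes, all with WT means under 1 CPM and log2 fold changes of 4.14, 1.36 and 2.50. Of the 24 genes named by the rule, 18 lay outside the range of the 6 other untreated libraries in both knockout clones, 8 above and 10 below. Over all tested genes 2.33% lay above and 2.55% below. The rule had already required both knockout clones to lie on 1 side of both WT clones, which favours this count.

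**Figure D2:**
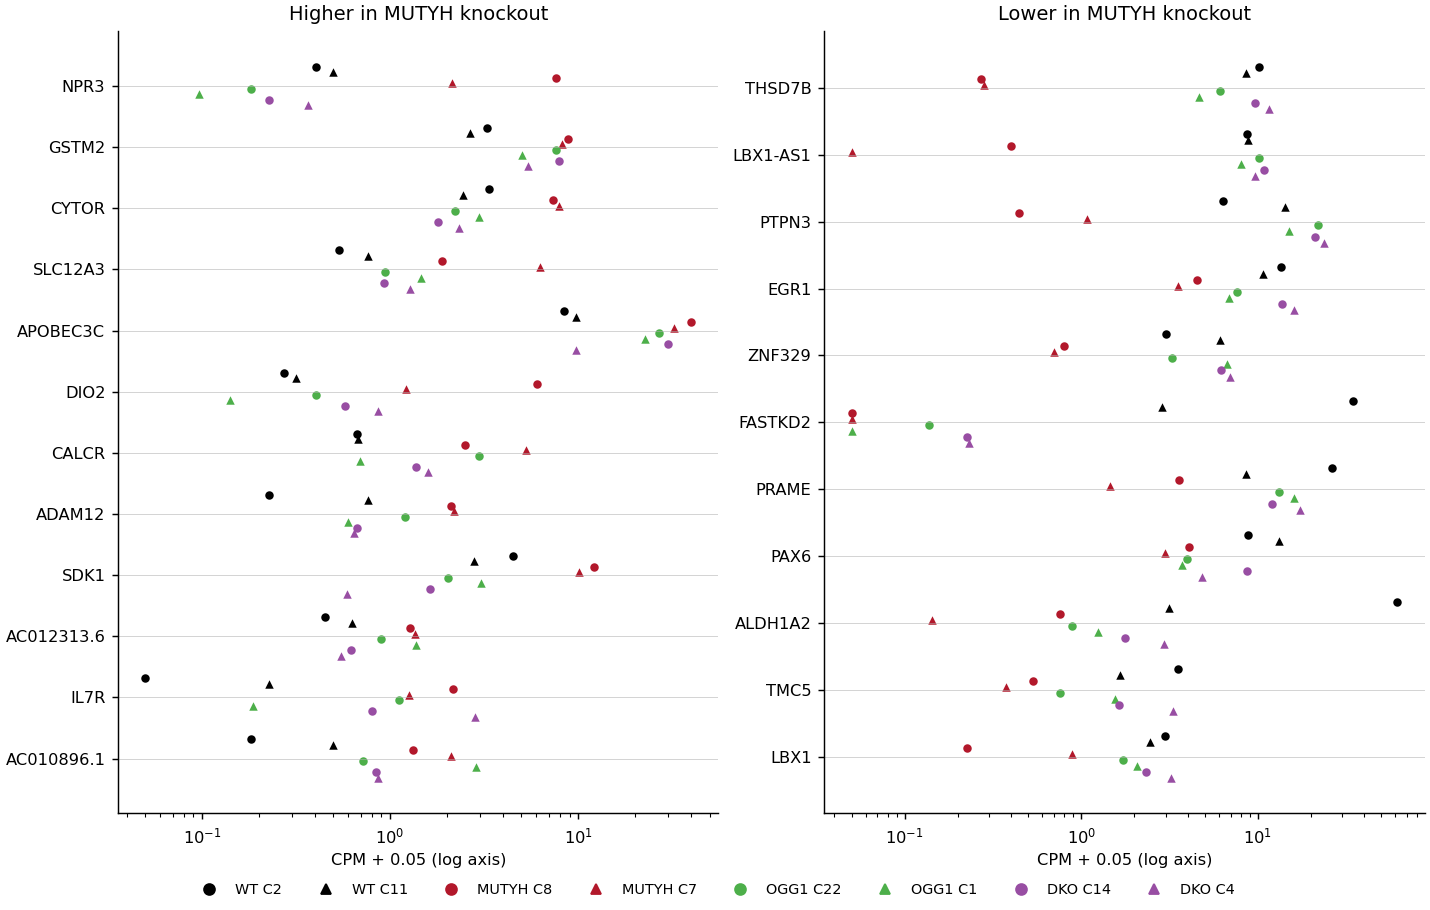
CPM plus 0.05 on a log axis for 12 higher (left) and 11 lower (right) DEGs named by the rule, ordered by P from the top. Each point is 1 library, with the genotype by colour and the 2 clones of a genotype by circle or triangle. The red MUTYH knockout points of THSD7B, LBX1-AS1 and PTPN3 are apart from all others, while FASTKD2 is low in every knockout and high in the 2 WT clones only.

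EGR1, an immediate early transcription factor that serum response factor switches on through CArG boxes, had 13.4 and 10.6 CPM in WT C2 and C11 and 4.45 and 3.49 CPM in C8 and C7. The pair ratios were nearly equal, -1.57 and -1.58, and EGR1 differed by -1.60 ± 0.25 (SE) on the log2 scale, with an adjusted p of 1 in edgeR. The Wald test of DESeq2 gave EGR1 an adjusted p of 0.000139. To show the regulatory sequence of this gene beside that of THSD7B, the gene with the smallest P, the 250 bases before each start site are given from RefSeq (GRCh38.p14, plus strand, EGR1 at chr5:138465229-138465478 and THSD7B at chr2:136765295-136765544), 5′ to 3′, with CArG boxes in capitals.
EGR1: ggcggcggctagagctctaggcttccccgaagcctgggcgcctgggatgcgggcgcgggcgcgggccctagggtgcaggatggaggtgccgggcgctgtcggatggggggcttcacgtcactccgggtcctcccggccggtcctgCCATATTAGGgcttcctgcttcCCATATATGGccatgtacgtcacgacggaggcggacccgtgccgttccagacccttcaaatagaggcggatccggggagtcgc
THSD7B: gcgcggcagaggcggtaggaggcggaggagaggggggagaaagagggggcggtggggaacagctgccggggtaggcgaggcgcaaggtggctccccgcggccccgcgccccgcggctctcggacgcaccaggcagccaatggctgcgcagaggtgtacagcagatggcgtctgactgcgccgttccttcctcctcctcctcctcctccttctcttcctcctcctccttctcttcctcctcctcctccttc
The EGR1 window held 2 CArG boxes, which begin 105 and 83 bases before the start, and the THSD7B window held none. Of 35116 such windows in the RefSeq table, 1.16% held a CArG box and 0.0313% held 2 or more. GC content was 68.4% in the EGR1 window and 69.2% in the THSD7B window. A G-quadruplex (G4) motif, 4 runs of at least 3 G with 1 to 7 bases of any kind between them, was found on the plus strand of the EGR1 window and on neither strand of the THSD7B window, and in 23.5% of all windows on either strand.

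Of 26 immediate early genes tested, FOSL2 was a higher DEG and EGR1 and KLF4 were lower DEGs, against 0.408% and 0.777% of all tested genes. FOSL2, an AP-1 subunit, had 1.46 and 2.94 CPM in WT C2 and C11 and 7.13 and 5.26 CPM in C8 and C7. KLF4 had 67.2 CPM in WT C2 alone, against 4.77 CPM in WT C11 and 4.18 and 5.45 CPM in C8 and C7, so its call (log2 fold change -2.90 ± 0.99) turned on 1 library. FOS had 1.78 and 1.43 CPM in WT and 0.836 and 0.977 CPM in the knockout, and did not pass the P threshold. The groups did not overlap for 5 members, 1 higher and 4 lower, against 11.3% and 10.4% of all tested genes. The list median was -0.03 in the fit, against 0.01 for all genes tested, and ran from -0.25 without WT C11 to 0.17 without WT C2. It was -0.10 in pair A and 0.16 in pair B.

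ID1, ID2 and ID3, inhibitors of bHLH transcription factors and direct targets of bone morphogenetic protein (BMP) signalling, were higher in both knockout clones than in both WT clones. They were chosen after their values were seen, since a log2 fold change under 1 kept them from being DEGs. ID1 had 29.0 and 37.6 CPM in WT C2 and C11 and 67.7 and 64.4 CPM in C8 and C7. In edgeR the log2 fold change of ID1 was 0.99 ± 0.17 (SE) with an adjusted p of 1, and it was among the 11 genes after adjustment in DESeq2 (adjusted p of 0.00516). ID2 had 12.4 and 15.6 CPM in WT and 24.7 and 25.6 CPM in the knockout, and ID3 had 52.6 and 65.9 CPM in WT and 110.4 and 99.5 CPM in the knockout. The log2 fold changes were 0.84 ± 0.18 for ID2 and 0.82 ± 0.17 for ID3. For all 3 genes the knockout libraries also lay above the OGG1 knockout and DKO libraries, in which ID1 ranged from 35.3 to 43.1 CPM. SMAD6, an inhibitor of the same pathway, had 17.5 and 33.4 CPM in WT and 42.2 and 46.1 CPM in the knockout (log2 fold change 0.79 ± 0.30). Over the whole list of 43 transforming growth factor beta and BMP genes tested, NOG, a secreted BMP antagonist, was the 1 DEG (log2 fold change 1.22 ± 0.44). With the block 1 member was a higher and 2 were lower DEGs, against 0.699% and 1.08% of all tested genes. In both pairs 0 members were over 2-fold higher and 1 was over 2-fold lower, against 0.397% and 0.716% of all tested genes. The groups did not overlap for 16 members, 14 higher and 2 lower, where 11.3% and 10.4% of all tested genes did so. The list median was 0.09 in the fit, 0.19 in pair A and 0.03 in pair B. The list held 0 higher DEGs without WT C2 and 5 without WT C11.

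Genes activated by YAP, the co-activator that the Hippo pathway restrains, had the list median furthest above 0 among lists with at least 20 members tested when all 4 clones were used. Of 20 YAP target genes tested, 2 were higher DEGs and none was lower, and with the block 5 were higher, against 0.408% and 0.699% of all tested genes. The groups did not overlap for 9 of them, 8 higher and 1 lower, against 11.3% and 10.4% of all tested genes. ANKRD1, a nuclear cofactor, had 0.089 and 0.579 CPM in WT C2 and C11 and 0.881 and 1.72 CPM in C8 and C7 (log2 fold change 1.94 ± 0.75). MYOF, a membrane repair protein, had 5.32 and 10.5 CPM in WT and 19.4 and 25.4 CPM in the knockout (1.85 in pair A and 1.27 in pair B on the log2 scale). The receptor kinase AXL had 0.932 and 1.56 CPM in WT and 1.85 and 3.72 CPM in the knockout, and did not pass the P threshold. CCN1, a matricellular gene, had 26.5 and 214.5 CPM in WT C2 and C11 and 118.4 and 362.6 CPM in C8 and C7. The libraries of the genotypes overlapped for CCN1, yet each knockout clone was above its paired WT clone, by 2.15 in pair A and 0.76 in pair B on the log2 scale. The list median was 0.62 in the fit, 0.85 in pair A and 0.37 in pair B. It depended on single clones, with 0.16 without WT C2, 0.31 without C7, 0.76 without C8 and 0.87 without WT C11, and without WT C2 the p53 targets were higher, at 0.28. Without WT C2 none of the list were DEGs, without WT C11 there were 7, without C8 there were 3 and without C7 none.

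Developmental homeobox genes held 6 of the lower DEGs. Of 57 PAX, LHX and other homeobox genes outside the HOX clusters, 6 were lower DEGs and none was higher, against 0.777% and 0.408% of all tested genes. In both pairs 5 were over 2-fold lower, against 0.716% of all tested genes. PAX6, an eye and brain regulator, had 8.79 and 13.1 CPM in WT C2 and C11 and 4.01 and 2.93 CPM in C8 and C7 (log2 fold change -1.66 ± 0.37). OGG1 knockout clones had similar PAX6 levels to these, 3.89 and 3.65 CPM. ALX4, a craniofacial and limb regulator, had 69.9 and 11.3 CPM in WT and 8.37 and 2.37 CPM in the knockout (log2 fold change -2.91 ± 0.85), against 59.7 to 69.2 CPM in the OGG1 knockout and DKO. IRX2 and IRX4, neighbours in 1 Iroquois gene cluster on chromosome 5, had 3.64 and 2.93 CPM in WT C2 and at most 0.846 CPM in every other untreated library. LBX1 is described above. Over the whole list, called members included, the groups did not overlap for 6 higher and 7 lower members. These shares were near the 11.3% and 10.4% of all tested genes. The list median was -0.16. Leaving out 1 clone at a time gave 4 (without WT C2) to 8 (without C8) lower DEGs in the list. None of 33 HOX genes tested was a DEG, with a list median of -0.23, -0.43 in pair A and -0.10 in pair B.

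Replication-dependent histone genes, which supply the histones of newly made chromatin, were measured at low levels. Of 26 tested, 3 were higher DEGs (H2BC7, H2BC18 and H3C10) and none was lower, against 0.408% and 0.777% of all tested genes. With at least 10 counts in every library, where fewer genes are tested, 0 were higher DEGs. In both pairs 1 member was over 2-fold higher, against 0.397% of all tested genes. The groups did not overlap for 7, all higher, against 11.3% of all tested genes. H2BC18 had 0.266 and 0.267 CPM in WT C2 and C11 and 0.616 and 0.698 CPM in C8 and C7 (log2 fold change 1.28 ± 0.42). H3C10 had 0.266 and 0.713 CPM in WT and 1.19 and 1.12 CPM in the knockout (log2 fold change 1.23 ± 0.50). H2BC7 had at most 0.352 CPM in any of the 4 libraries. The list median was 0.42 in the fit, 0.34 in pair A and 0.35 in pair B. It was 0.14 without WT C2, 0.12 without C7, 0.69 without C8 and 0.75 without WT C11. Most of these transcripts lack a poly(A) tail and the genes are near-identical copies, so which copy a read came from is uncertain. The number of DEGs in the list was 0 without WT C2 and without C8, 1 without C7 and 7 without WT C11.

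**Figure D3:**
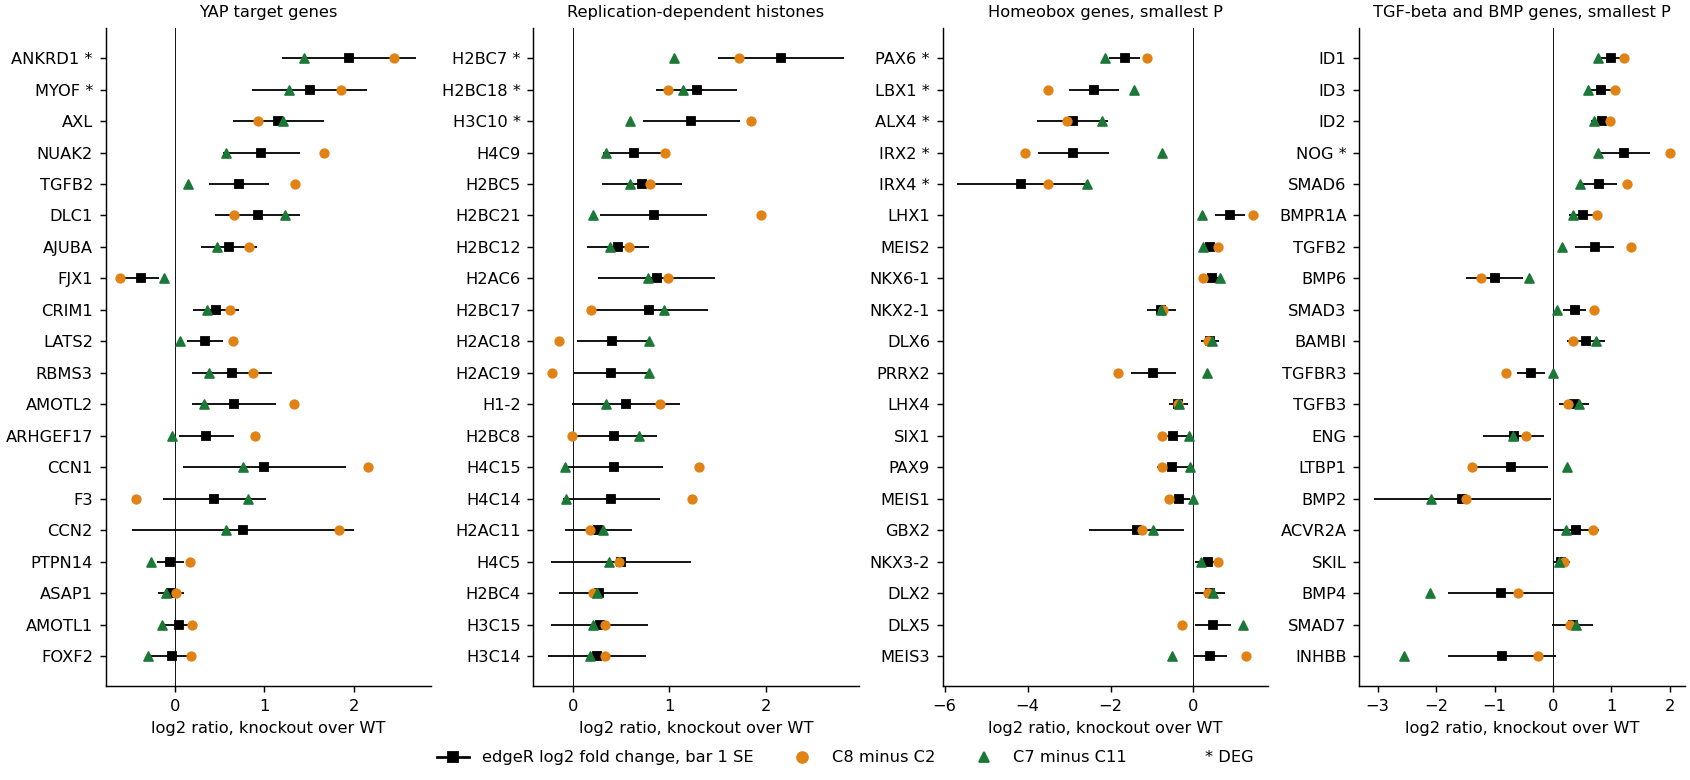
Log2 ratio of MUTYH knockout over WT for members of 4 lists, up to 20 per list ordered by P: the edgeR log2 fold change with a bar of 1 SE (black), pair A (orange circle) and pair B (green triangle), with an asterisk for DEGs. ID1, ID2 and ID3 have short bars and close pair values, whereas NOG, CCN1 and CCN2 lie further from 0 in pair A than in pair B.

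Lists of DNA repair genes gave no DEG apart from 1 gene of direct reversal. None of 27 base excision repair, 8 mismatch repair, 20 nucleotide excision repair, 27 double strand break repair, 14 Fanconi anaemia and 18 damage checkpoint genes tested was a DEG with or without the block. Only 1.78% of all tested genes were DEGs with and 1.19% without it, so lists of these sizes would hold few or none. Their medians lay between -0.10 and 0.05. In base excision repair the smallest P values belonged to the scaffold XRCC1, with 29.8 and 39.1 CPM in WT and 41.3 and 45.9 CPM in the knockout (log2 fold change 0.34 ± 0.19), and to the alkyladenine glycosylase MPG (0.34 ± 0.23). MGMT, which removes alkyl groups from guanine, was a higher DEG among 9 direct reversal genes. It had 3.28 and 4.59 CPM in WT C2 and C11 and 13.6 and 7.45 CPM in C8 and C7 (log2 fold change 1.42 ± 0.52). In contrast, MGMT was under 1 CPM in the other knockouts, with 0.752 and 0.776 CPM in OGG1 knockout C22 and C1 and 0.044 and 0.317 CPM in DKO C14 and C4. The interaction contrast of MGMT, the effect of MUTYH loss with OGG1 absent minus that with OGG1 present, was -3.48 ± 0.88 (SE, edgeR adjusted p of 1).

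Responses to damage and oxidants held few DEGs, where 1.19% of all tested genes were DEGs. These were GSTM2 among 13 glutathione transferases, described above, and 1 gene of the integrated stress response. None of 23 p53 targets tested was a DEG, and their median was 0.18, with 0.19 in pair A and 0.08 in pair B. BAX, the pro-apoptotic target with the smallest P, had 49.4 and 43.3 CPM in WT and 64.6 and 55.9 CPM in the knockout (log2 fold change 0.38 ± 0.18), and CDKN1A, the cell cycle inhibitor, had pair values of 1.28 and -0.09. None of 30 NRF2 targets was a DEG (median 0.08). The groups did not overlap for 7 NRF2 targets higher and 1 lower, and for 3 p53 targets, all higher. Over all tested genes these shares were 11.3% and 10.4%. The quinone reductase NQO1 had 56.4 and 65.5 CPM in WT C2 and C11 and 110.5 and 109.4 CPM in C8 and C7. The edgeR fit gave NQO1 a log2 fold change of 0.85 ± 0.20 (SE) and an adjusted p of 1. The iron storage subunit FTL had 178.5 and 279.8 CPM in WT and 358.5 and 504.9 CPM in the knockout (log2 fold change 0.91 ± 0.26). FTL was as high in OGG1 knockout C22 and C1, with 422.0 and 400.5 CPM, whereas NQO1 had 46.6 and 63.5 CPM in DKO C14 and C4. None of 25 peroxide and superoxide enzymes, 5 metallothioneins and 18 unfolded protein response genes was a DEG. The groups did not overlap for 5 peroxide and superoxide enzymes and 4 glutathione transferases, all higher. For integrated stress response genes they did not overlap for 3 higher and 5 lower. In the integrated stress response, asparagine synthetase (ASNS) was the 1 DEG of 20, with 6.39 and 3.79 CPM in WT and 2.29 and 1.96 CPM in the knockout (log2 fold change -1.26 ± 0.42).

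Housekeeping programmes did not differ by the DEG criterion. No DEG was found among 86 cytosolic and 77 mitochondrial ribosomal protein genes, 38 complex I genes, 38 genes of complexes II to V, 24 glycolysis, 20 citric acid cycle, 46 proteasome, 142 splicing, 55 DNA replication or 40 mitosis genes tested. Their medians lay between -0.01 and 0.07. The groups did not overlap for 13 replication genes higher and 1 lower and for 10 mitosis genes, all higher, against 11.3% and 10.4% of all genes. Pair medians went opposite ways for cholesterol synthesis, with -0.29 in pair A and 0.26 in pair B over 25 genes, and for the 15 mitochondrially encoded genes, with -0.19 and 0.24. MT-CO1, a cytochrome oxidase subunit, had 12659 and 7598 CPM in WT C2 and C11 and 6100.0 and 11454 CPM in C8 and C7.

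Of 111 lists, 42 held at least 1 DEG and 69 held none. The lists differ in size, and 1.19% of all tested genes were DEGs. Of the 212 DEGs 72 belonged to a list, and of the 17881 tested genes 4177 did. Of the 108 lists with at least 5 members tested, the median was positive in both pairs for 38, negative in both for 19 and of opposite sign for 51. It was beyond 0.1 the same way in both pairs for 7 lists. These were the YAP targets, the replication-dependent histones, the cadherins (0.41 and 0.35 in pairs A and B), the non-clustered protocadherins (0.32 and 0.50), the fibroblast growth factor genes (0.13 and 0.29) and the epithelial markers (0.34 and 0.16), all with positive medians, and the cancer-testis genes (-0.16 and -0.16). The medians moved with the clones. The fitted median of the fibroblast growth factor genes was 0.16, but -0.25 without WT C11 and -0.06 without C7, and that of the cadherins was 0.45, but 0.90 without WT C11 and -0.04 without C7. Without WT C2 that of the non-clustered protocadherins was 0.08, against 0.47, and that of the epithelial markers 0.05, against 0.19. The cancer-testis median was -0.12, and between -0.27 and -0.15 with 1 clone left out.

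**Figure D4:**
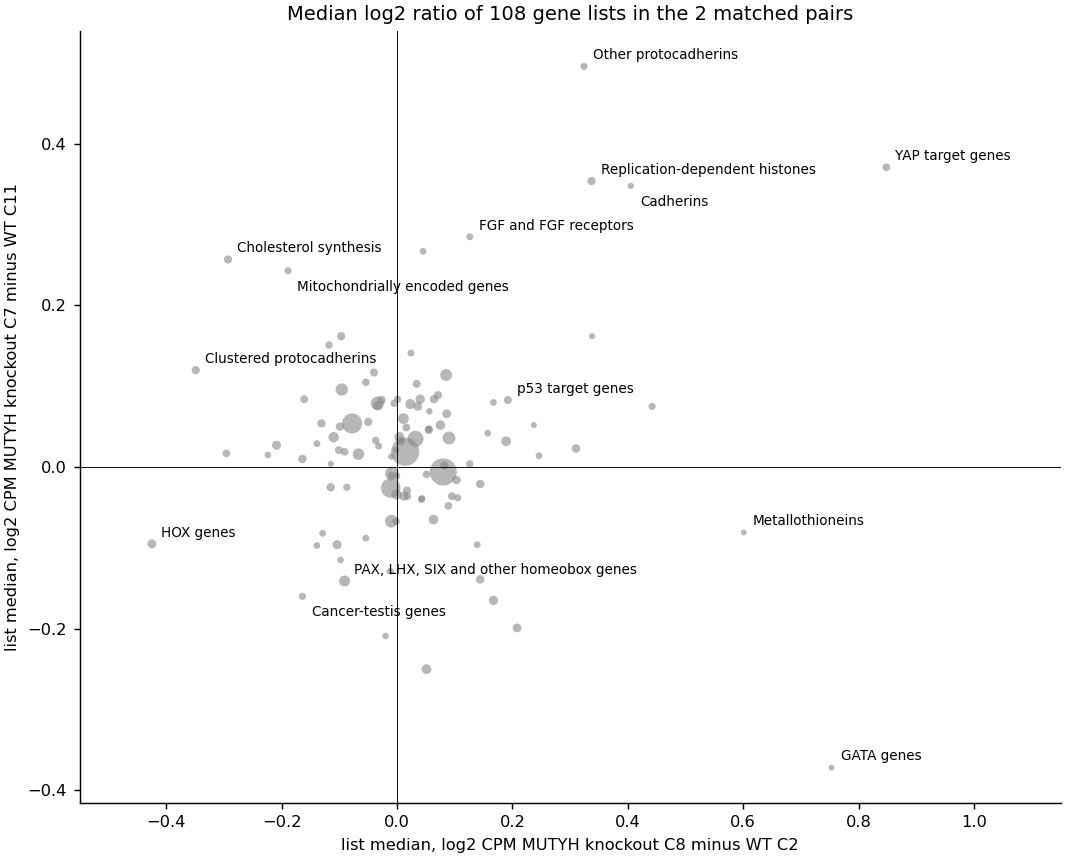
Median log2 CPM ratio of each of 108 gene lists in pair A (horizontal) and pair B (vertical), with the point area growing with the number of members tested. Most lists lie near 0 in both pairs; the YAP targets reach 0.85 and 0.37, and cholesterol synthesis and mitochondrially encoded genes lie on opposite sides of 0 in the 2 pairs.

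The axon guidance and thrombospondin repeat lists each held 3 lower DEGs and no higher one. Of 65 axon guidance genes, 3 were lower and none was higher, against 0.777% and 0.408% of all tested genes. SEMA3A, a repulsive guidance cue, had 17.2 and 5.79 CPM in WT C2 and C11 and 2.29 and 0.326 CPM in C8 and C7 (log2 fold change -3.12 ± 1.05), and 0.088 to 2.42 CPM in the OGG1 knockout and DKO. SLIT3, a ligand of Robo receptors, had 6.35 and 4.99 CPM in WT and 3.30 and 1.44 CPM in the knockout, and under 1 CPM in the OGG1 knockout and DKO. EPHB1, an ephrin receptor, was high in WT C2 alone (5.72 CPM, against 0.757 CPM in WT C11). Without WT C2 the list had 0 DEGs. Of 30 thrombospondin repeat genes, 3 were lower, against 0.777% of all tested genes, THSD7B and the proteases ADAMTS6 and ADAMTS9. ADAMTS9 had 16.0 and 5.03 CPM in WT and 4.05 and 0.465 CPM in the knockout. Its antisense gene ADAMTS9-AS1 was also a lower DEG (log2 fold change -1.91 ± 0.64), though reads of the 2 genes cannot be told apart without strand.

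Membrane transport and signalling genes moved singly. Of 229 solute carriers, 2 were higher and 3 lower DEGs, against 0.408% and 0.777% of all tested genes. SLC8A1, a sodium calcium exchanger, had 0.266 and 1.29 CPM in WT and 1.45 and 9.68 CPM in the knockout. SLC43A3, a purine base carrier, had 10.9 and 18.5 CPM in WT C2 and C11 and 4.18 and 8.24 CPM in C8 and C7 (log2 fold change -1.25 ± 0.44). SLC19A3, a thiamine carrier, had 4.84 and 3.52 CPM in WT and 0.044 and 0.093 CPM in the knockout, but its levels also ran from 0 CPM in both DKO clones to 11.2 CPM in OGG1 knockout C1. GRIA2, a glutamate receptor subunit, had 8.08 and 7.44 CPM in WT and 2.16 and 1.02 CPM in the knockout (log2 fold change -2.28 ± 0.77). CACNB4, a calcium channel subunit, had 19.6 and 11.8 CPM in WT and 9.86 and 3.40 CPM in the knockout. Prostaglandin receptor PTGER4 was higher, with 0.133 and 0.846 CPM in WT and 1.67 and 2.14 CPM in the knockout. No DEG was found among 29 interferon-stimulated, 41 Wnt, 22 Notch or 12 Hedgehog genes tested.

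Among other regulators, cyclin D2 (CCND2) was a lower DEG with 38.4 and 11.1 CPM in WT C2 and C11 and 6.34 and 8.80 CPM in C8 and C7. The imprinted gene MEST had 1.02 and 2.18 CPM in WT and 1.67 and 26.7 CPM in C8 and C7, so its log2 fold change of 3.14 ± 1.16 rested on C7. CRYAB, a small heat shock protein, had 1.89 CPM in C8 and at most 0.279 CPM in the other 3 libraries. Of 435 ZNF zinc finger genes tested, ZNF404 was higher and ZNF329 and ZNF300 were lower. The groups did not overlap for 113 ZNF genes, 82 higher and 31 lower, against 11.3% and 10.4% of all tested genes. The pair medians were 0.08 and -0.01. Of 471 antisense RNA genes 3 were lower and none was higher, and of 217 intergenic long non-coding RNAs 3 were higher and 5 lower, against 0.408% higher and 0.777% lower over all tested genes, a share that 3 of 471 does not exceed. LINC00649 had the smallest P of the latter, with 9.32 and 2.09 CPM in WT and 0.881 and 0.698 CPM in the knockout.

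Markers of other cell types were used to check the line. Of 31 haematopoietic markers, 10 had no read in the 4 libraries, among them MPO, HBB, CD3E and LAPTM5, and 11 were tested. Their summed level was 78.1 and 45.5 CPM in WT C2 and C11 and 58.0 and 47.9 CPM in C8 and C7. MYB, a progenitor transcription factor, was the 1 DEG of this list, with 30.0 and 9.67 CPM in WT and 9.07 and 5.35 CPM in the knockout. Summed neural markers were 1270 and 1220 CPM in WT and 1010 and 1350 CPM in the knockout, with NEFL as 1 lower DEG (16.2 CPM in WT C2, under 1 CPM in the other 3 libraries). Summed fibroblast markers were 329 and 545 CPM in WT and 463 and 693 CPM in the knockout, summed epithelial markers 53.5 and 66.7 CPM in WT and 56.6 and 84.2 CPM in the knockout, and summed endothelial markers 14.8 and 23.6 CPM in WT and 12.8 and 15.6 CPM in the knockout. The ranges of the groups overlapped for every list. Within both pairs the fibroblast and epithelial sums were higher and the endothelial sum lower in the knockout, while the haematopoietic and neural sums went opposite ways. The part of such markers in the results was not tested.

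DEGs lay mostly among weakly expressed genes. In the lowest quintile of tested genes by mean level 3.33% were DEGs, followed by 2.01%, 0.503%, 0.0839% and 0% in the next quintiles. The median of the higher of the 2 group means was 2.6 CPM for lower DEGs and 1.66 CPM for higher DEGs, against 17.5 CPM for all genes tested. In the top 2 quintiles the DEGs were MPDZ and KIFAP3, both higher, and TMEM47, which was lower. Long non-coding RNA genes had 1.81% DEGs and protein-coding genes 1.18%. By chromosome the share ran from 0.258% on chromosome 20 to 3.02% on chromosome 13, where 2 of 298 genes were higher and 7 lower. All 10 DEGs of 575 X-linked genes were lower. Chromosome medians of the log2 fold change stayed between -0.03 and 0.06. By GC content of the promoter window, 300 bases around the 5′ end of the annotated gene, the quintile with the lowest GC had 1.99% DEGs and the others 0.904% to 1.21%. A G4 motif was present in 32.4% of 182 DEG windows and in 31.1% of 15219 tested windows, and 1.25% of genes with and 1.17% of genes without the motif were DEGs.

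**Figure D5:**
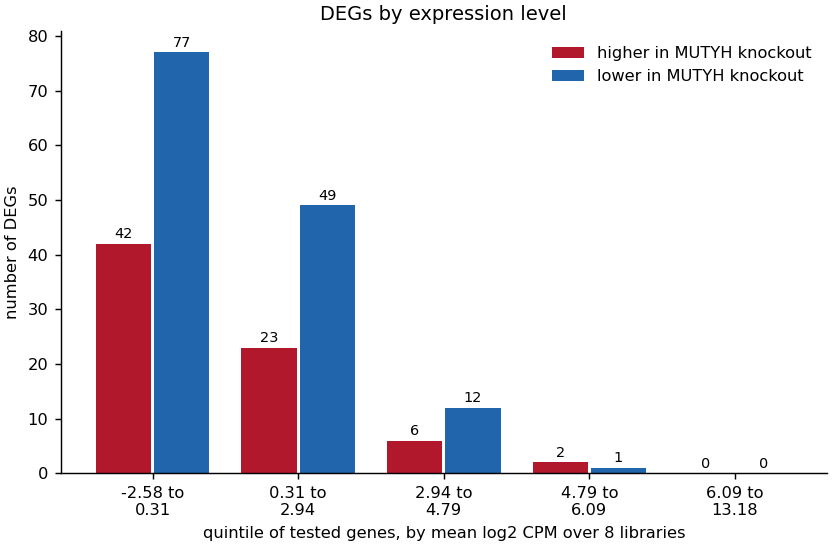
Number of DEGs in each quintile of the 17881 tested genes by mean log2 CPM over 8 libraries (range of each quintile under the bars), higher (red) and lower (blue) in MUTYH knockout. The lowest quintile has 42 higher and 77 lower DEGs and the highest has none.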

How the data were processed

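Untreated HAP1 libraries were measured by RNA-seq of total RNA on the DNBseq platform. The deposited values were read counts per gene, which the authors made with HISAT2 2.2.1 (GRCh38.p13) and featureCounts. Per the submitters' processing notes, FastQC 0.11.9, R 4.2.2 and edgeR 3.42.4 were also used. Counts were not normalized, and strand and multi-mapping settings are not given in the sources used here. Counting error at 1 CPM gives a coefficient of variation of 21.2%.

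The tests were run with edgeR 4.0.16 under R 4.3.3 (TMM factors of 0.96 to 1.02, filterByExpr, quasi-likelihood F test with legacy=TRUE, two-sided) in 1 fit of 8 untreated libraries (4 residual degrees of freedom), and with the side of the matched pairs as a block (3). Alternatives were DESeq2 1.42.0, its size factors, other filters, edgeR 4 settings, 4 libraries only and single clones left out. The fit was tested on simulated data. Log2 CPM used a prior count of 2. The DEG criterion followed the methods of the study. SE came from the F statistic. The pairing came from a split seen in the counts and from no label. The correlation given in the report comes from the same counts, so it describes the pairing and cannot check it. The block comes from that split too, so its P values are not independent of the counts tested. The floor of 3 counts covers counting error only. P values measure the spread between clones of a genotype, of which there were 2.

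Gene lists and genes were chosen with earlier results of these data known. Named genes were MUTYH, up to 12 DEGs per direction with the smallest P, no overlap, at least 1 CPM and over 2-fold in both pairs, up to 4 DEGs per list, the 2 members with the smallest P of described lists without one, up to 3 genes per direction that went opposite ways over 2-fold in the pairs at 5 CPM or more, and genes after adjustment. A gene that the rule names is not reported here, though counts include it. Symbols of 85.1% of tested genes matched GENCODE v44, which gave positions. Promoter windows were cut from GRCh38 at the annotated 5′ ends, since the RefSeq promoter table matched too few tested genes for class counts; 186 of 186 RefSeq windows compared were identical to that genome.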

Additional observations from a re-analysis of the deposited data

Results flagged for a closer look

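THSD7B was singled out because its difference between clones with and without MUTYH was not the same with and without OGG1. The interaction contrast, DKO minus OGG1 knockout less MUTYH knockout minus WT, was 6.31 ± 0.43 (SE) on the log2 scale, with an edgeR adjusted p of 0.0179. THSD7B had 0.22 and 0.233 CPM in MUTYH knockout C8 and C7, but 9.63 and 11.5 CPM in DKO C14 and C4, which lack MUTYH too, and 6.06 and 4.61 CPM in OGG1 knockout C22 and C1. Both MUTYH knockout clones were below all 6 other untreated libraries. LBX1-AS1 and PTPN3 had contrasts of the same sign, 5.74 ± 0.94 and 4.12 ± 0.71 (SE), each with an edgeR adjusted p of 1. The DKO clones descend from an OGG1 knockout clone. At these genes a dependence on OGG1 thus cannot be told apart from traits of the MUTYH knockout clones alone. What sets those clones apart here was not tested.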

How the results depend on the processing

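With the side of the matched pairs as a block the number of DEGs was 318. It was 532 with no filter on low counts and 86 with at least 10 counts in every library, where fewer genes are tested. Leaving out 1 clone gave 117 (without WT C2) to 702 (without WT C11) DEGs, and 57 to 145 of the 212 stayed DEGs. DESeq2 size factors gave 215, DESeq2's Wald test 213, edgeR 4 settings 235 and the 4 libraries alone 180. Genes after adjustment numbered 2 with no filter, 0 with at least 10 counts, 0 with the 4 libraries alone (251 at an unadjusted edgeR P of at most 0.05), 11 by DESeq2's Wald test, and 0 to 2 with 1 clone left out. Genes over 2-fold the same way in both pairs numbered 199, but 122 with a prior count of 5, 58 with at least 10 counts in each of the 4 libraries, 255 with a prior count of 0.5 and 144 with crossed pairs. The cause of these changes was not tested. For the 24 named genes, 138 of 144 alternative values kept direction and call, none reversed and 6 lost the call. The losses were SDK1 (without WT C11), AC012313.6 and AC010896.1 (each without WT C2 and without C7) and IL7R (without WT C2). Of 108 list medians, 38 changed sign without C8, 36 without WT C2, 32 without C7, 26 without WT C11 and 3 with DESeq2 size factors. List counts with clones left out were chosen after seeing the data. Low counts limit most calls.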

Other observations

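Neighbouring genes sometimes went together. Of 182 DEGs with a position, 12 (6.6%) stood next to another DEG of the same direction in the order of tested genes. They formed 6 of the 8 neighbouring pairs of DEGs, and all 6 were lower. Over all tested genes 1.19% were DEGs, and the share expected of neighbours was not computed. Besides LBX1 with LBX1-AS1, ADAMTS9 with ADAMTS9-AS1, IRX4 with IRX2 and KY with EPHB1, these were the connexin genes GJB2 and GJB6 on chromosome 13 (log2 fold changes -1.14 ± 0.37 and -2.07 ± 0.61, SE) and CENPVL2 and CENPVL1 on the X chromosome (-1.34 and -1.39), which are near-identical copies. IRX4 and IRX2 lay 858608 bases apart, and KY and EPHB1 143623 bases. IRX2, IRX4 and EPHB1 were high in WT C2 alone, as given above. All these pairs were chosen after their values were seen.

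Some genes with a mean of at least 5 CPM in either group went opposite ways in the pairs. PGM5 had 1.33 and 5.35 CPM in WT C2 and C11 and 14.4 and 0.931 CPM in MUTYH knockout C8 and C7. CHL1, a neural adhesion gene, had 1.86 and 5.57 CPM in WT and 13.3 and 1.21 CPM in the knockout, and CYYR1 showed the same pattern. ZNF841, STXBP2 and ESRG were lower in pair A and higher in pair B. STXBP2, a secretion gene, had 4.13 and 3.88 CPM in WT and 0.44 and 18.3 CPM in C8 and C7. None of these genes was a DEG.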
